A study of Homo sapiens with 16 samples.

Results

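The difference between 2 melanoma cell lines, A101D and MeWo, in how their RNA changed from replicates 1 to 4 to replicates 5 to 8 was described gene by gene. All 16 of 16 libraries entered, in 4 groups of 4: A101D replicates 1 to 4, A101D replicates 5 to 8, MeWo replicates 1 to 4 and MeWo replicates 5 to 8. For each gene the change in a line is the log2 ratio of replicates 5 to 8 over replicates 1 to 4, and the interaction is the A101D change minus the MeWo change. The split of the replicate numbers was chosen by earlier results of these same libraries, and the gene lists with those results known. The calls therefore only sort genes into classes. Calls and counts of genes at an adjusted p under 0.05 are a description, with no p-value offered as support. Of 60676 gene identifiers, 21569 passed the filter on low counts and 2880 were called in the interaction.

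A101D carries the label methionine dependence and MeWo the label methionine independence, and both are established human melanoma lines. Every culture was grown in a high-glucose base with dialyzed serum, glutamine, pyruvate and antibiotics, to which cystine was added at 150 µM. The growth protocol describes 2 supplements to that base, 200 µM methionine for the control medium and 200 µM homocysteine for a methionine-free medium. No source used here says which culture had which, so the groups are named by line and replicate number only, and the sign of each change has no known treatment behind it. The labels do not say that the replicates were separate cultures, so the spread between them may be technical.

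Methionine is an essential amino acid that enters proteins and is also converted by MAT2A, a methionine adenosyltransferase, to S-adenosylmethionine, the main methyl donor of the cell. The product left after methyl transfer is hydrolysed by AHCY to homocysteine, which MTR, methionine synthase, can methylate back to methionine. Many transformed cells proliferate poorly when homocysteine replaces methionine, a trait called methionine dependence. Shortage of an amino acid activates the integrated stress response, in which the transcription factor ATF4 raises genes of amino acid synthesis, uptake and stress signalling.

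The libraries held 28910881 to 38961862 counts. More genes were detected in A101D replicates 5 to 8 (34020 to 34607) than in A101D replicates 1 to 4 (31281 to 33107), and the order was the same after adjustment to the lowest depth (31463 to 31790 against 29215 to 30180). In MeWo 30066 to 31433 genes were detected, except in replicate 2 with 34471. The mitochondrial share of counts was 1.71% to 1.92% in A101D replicates 1 to 4, 1.93% to 2.33% in A101D replicates 5 to 8 and 1.28% to 1.45% in MeWo. The pigment cell genes MITF, SOX10, PAX3, DCT and PMEL were present in both lines, while TYR and TYRP1 stayed at or under 1.74 CPM, the count scaled to a common library size, in every A101D library. Of 20 markers of fibroblasts, endothelium, leukocytes and epithelium, 14 were tested. In A101D 8 of them were called higher in replicates 5 to 8 (10% over all genes), among them VWF (mean 15.8 against 3.71 CPM) and KRT8 (23.9 against 9.61 CPM), and none lower, although COL1A2 (596 against 956 CPM) and PDGFRB (6.43 against 8.71 CPM) had lower means. No marker was called in MeWo, and PTPRC, CD3E, EPCAM and KRT5 stayed under 0.275 CPM in every library. Other markers were well above that. KRT18 had means of 110 and then 152 CPM in A101D, and LUM of 72.6 and then 75.7 CPM in MeWo. Summed over the list, A101D libraries had 1053 to 1162 CPM (replicates 1 to 4) and 791 to 832 CPM (replicates 5 to 8), most of it COL1A2. MeWo libraries had 80.9 to 91.9 CPM, most of it LUM. The part of these markers and of the detected gene number in the results was not tested.

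The groups stood much further apart in A101D than in MeWo. The root mean square log2 distance between A101D libraries was 0.364 (median, 0.326 to 0.403) within a replicate group and 0.831 (0.775 to 0.872) between the groups. In MeWo the same distances were 0.383 (0.354 to 0.459) and 0.416 (0.386 to 0.479), so their ranges overlapped. The first principal component separated the groups in both lines, and carried 74.7% of the variance in A101D and 24.3% in MeWo.

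A gene was called where limma's adjusted p was under 0.05 and the absolute log2 value at least 1. The interaction was called for 2880 genes (13.4% of those tested), with 1602 higher (7.43%) and 1278 lower (5.93%) in A101D relative to MeWo. The A101D change was called for 3581 genes (16.6%), 2163 higher (10%) and 1418 lower (6.57%). The MeWo change was called for 136 genes (0.631%), 57 higher (0.264%) and 79 lower (0.366%). The rule used these contrasts, so nothing is read from these shares. At the edge of the rule, ANO7 had an interaction of 1.000280 and was inside, while SREBF2, a regulator of sterol synthesis, had -0.999960 and was outside.

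Most called genes were private to A101D, meaning called in A101D and in the interaction with a MeWo change under 0.5 in absolute log2. This class held 1086 genes higher and 997 lower in A101D replicates 5 to 8. Only 8 genes were private to MeWo and higher, and 17 private to MeWo and lower. The change was shared, called in both lines with 1 sign, for 28 higher and 10 lower genes, and opposite for 6. The other 1908 called genes were intermediate: 1091 were called in A101D but not in the interaction, 387 in the interaction alone, 363 in A101D and the interaction with a MeWo change of at least 0.5, 14 in MeWo and the interaction with an A101D change of at least 0.5, and 53 in MeWo but not in the interaction. Without MeWo replicate 2 the genes private to MeWo and lower numbered 10, those private to A101D 1031 higher and 948 lower, and the shared genes 31 and 14.

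**Figure D1:**
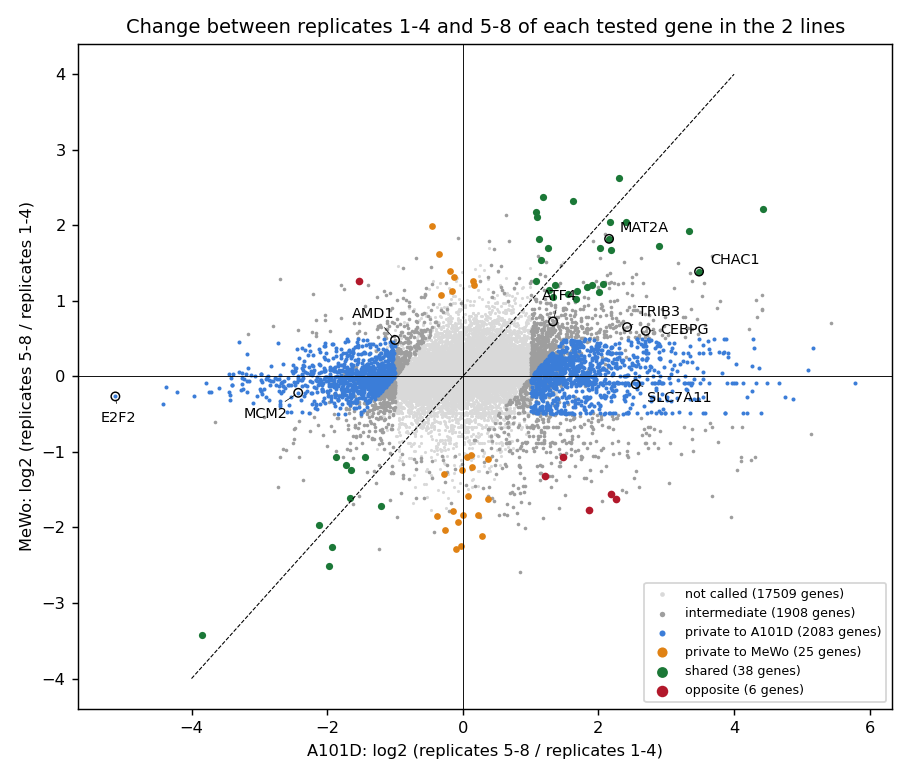
Each point is 1 of 21569 tested genes; the x axis gives its log2 change in A101D and the y axis its log2 change in MeWo, both as replicates 5 to 8 over replicates 1 to 4, with colours for the classes and a dashed line where both changes are equal. The 1086 higher and 997 lower genes private to A101D form a flat band along the x axis by definition, as their MeWo change must be under 0.5 in absolute log2. MAT2A lies near the dashed line.

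Sign was shared more often than size, but over all tested genes 60.1% already had the same sign in both lines. Of 2163 genes called higher in A101D, 1361 (62.9%) also had a positive MeWo change (50.4% over all genes). Of the 2163, 243 had a positive change with an adjusted p under 0.05 there (6.16% over all genes), against 10 with a negative change (7.45%). The median log2 change of the 2163 genes was 1.48 in A101D and 0.13 in MeWo. Of 1418 genes called lower in A101D, 934 (65.9%) had a negative MeWo change (49.6% over all genes). Of the 1418, 234 had a negative change with an adjusted p under 0.05 there (7.45% over all genes), against 29 with a positive change (6.16%). The medians of the 1418 genes were -1.39 in A101D and -0.07 in MeWo. Across all 21569 genes, which are not independent replicates, the Pearson correlation of both changes was 0.16.

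Levels differed between the classes. Of the 1086 genes private to A101D and higher, 652 were under 1 CPM in both MeWo groups and 134 reached 10 CPM in both lines. Under 1 CPM a MeWo change is poorly measured, so for those genes the class does not show a lack of change in MeWo. Over all 21569 genes tested, 7254 were under 1 CPM in both MeWo groups and 9181 reached 10 CPM in both lines. Of the 997 private and lower genes, 457 reached 10 CPM in both lines, a share near that over all genes. At that level 3 shared higher genes were left (MAT2A, CHAC1 and the unnamed ENSG00000260035), and no shared lower, opposite or MeWo-private gene.

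Short motifs were searched in all promoters, and short stretches of promoter are given as examples for genes picked among those with a match. TGATGNAA, the core of the amino acid response element, bound by ATF4 with C/EBP partners, is in capitals in CHAC1, ASNS and AARS1. TTTGAA, the cell cycle homology region found in promoters of mitotic genes, is in capitals in MKI67, CCNB2 and PLK1. CCNB2 changed by -2.15 in A101D and -0.01 in MeWo, and PLK1 by -1.69 and 0.03. The examples are not typical of the genes described below. MAT2A, ATF4, TRIB3, SESN2, DDIT3 and PSAT1 had no TGATGNAA, and MCM2, E2F2 and PCLAF no TTTGAA, in the stretches searched. The sequences are RefSeq reference sequence on GRCh38.p14, 5′ to 3′ along the gene's strand, 100 bases each and all upstream of the start.
CHAC1: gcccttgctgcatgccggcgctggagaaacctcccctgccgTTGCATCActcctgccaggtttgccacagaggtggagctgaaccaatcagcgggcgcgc
ASNS: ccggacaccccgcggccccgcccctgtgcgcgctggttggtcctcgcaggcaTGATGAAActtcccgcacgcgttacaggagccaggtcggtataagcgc
AARS1: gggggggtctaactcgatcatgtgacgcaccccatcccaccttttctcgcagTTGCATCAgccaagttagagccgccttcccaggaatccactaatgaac
MKI67: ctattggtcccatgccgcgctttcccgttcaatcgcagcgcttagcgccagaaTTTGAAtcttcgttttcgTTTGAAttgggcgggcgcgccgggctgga
CCNB2: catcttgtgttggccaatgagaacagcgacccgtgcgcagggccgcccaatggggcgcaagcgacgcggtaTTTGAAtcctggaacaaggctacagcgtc
PLK1: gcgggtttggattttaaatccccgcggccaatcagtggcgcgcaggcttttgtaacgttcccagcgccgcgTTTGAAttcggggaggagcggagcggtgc

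CHAC1 is chr15:40953221-40953320 (plus strand), ASNS chr7:97872429-97872528 (minus) and AARS1 chr16:70289646-70289745 (minus). MKI67 is chr10:128126424-128126523 (minus), CCNB2 chr15:59105046-59105145 (plus) and PLK1 chr16:23678789-23678888 (plus). In CHAC1 and AARS1 the capitals are the motif's reverse complement. In CCNB2 and PLK1 the match begins at position -29 from the start of the transcript, and in MKI67 at -47 and again at -29.

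MAT2A was higher in replicates 5 to 8 of both lines, 4.46-fold in A101D and 3.53-fold in MeWo. The gene (ENSG00000168906, chr2:85539165-85545280) measured 133, 140, 140 and 136 CPM in A101D replicates 1 to 4 and 616, 615, 612 and 602 CPM in replicates 5 to 8. In MeWo it measured 183, 176, 189 and 194 CPM and then 651, 677, 667 and 624 CPM. The groups did not overlap in either line. The log2 change was 2.16 ± 0.03 (SE) in A101D and 1.82 ± 0.03 in MeWo, with an interaction of 0.34 ± 0.05.

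CHAC1, a glutathione-degrading enzyme and ATF4 target, was shared in direction but not in size. It measured 19.1, 21.4, 18.2 and 19.3 CPM in A101D replicates 1 to 4 and 227, 236, 219 and 192 CPM in replicates 5 to 8. The MeWo libraries had 13.8, 15.1, 15.5 and 15.3 CPM and then 41.5, 40.8, 42.0 and 32.7 CPM. The groups did not overlap in either line, and the level was 11.2-fold higher in A101D and 2.62-fold higher in MeWo. The interaction was 2.10 ± 0.13. The shared lower gene H3C8, a replication-dependent histone of a multigene family whose reads may be split between copies, had means of 92.6 and then 6.45 CPM in A101D, but of only 0.397 and 0.0285 CPM in MeWo.

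Genes of methionine metabolism moved in different directions in A101D. Of 24 tested genes of the methionine cycle, salvage and transsulfuration, 3 were called higher and 2 lower in A101D, and MAT2A alone was called in MeWo. The A101D shares, beside 10% and 6.57% over all genes, show no pattern of their own. The median change was -0.35 in A101D and -0.05 in MeWo, beside 0.01 and 0.00 over all genes tested. AHCY changed by -0.55 ± 0.04 in A101D and -0.08 ± 0.04 in MeWo, and MTR by -0.40 ± 0.04 and -0.01 ± 0.04. CTH, which makes cysteine in transsulfuration, changed by 2.11 ± 0.07 and 0.65 ± 0.09, and CBS, the enzyme before it, by 1.31 ± 0.07 and 0.23 ± 0.16. CBS has a near-identical gene copy, so its counts are uncertain.

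AMD1, which makes decarboxylated S-adenosylmethionine for polyamine synthesis, moved in different directions. It measured 392, 422, 394 and 401 CPM in A101D replicates 1 to 4 and 177, 194, 204 and 233 CPM in replicates 5 to 8. Its MeWo levels were 165, 167, 161 and 156 CPM and then 220, 236, 221 and 230 CPM. The groups did not overlap in either line, with A101D lower and MeWo higher in replicates 5 to 8. The changes were -1.0 ± 0.05 and 0.48 ± 0.06 and the interaction -1.48 ± 0.08, and the MeWo change was under the size the opposite class needs. MTAP, which recycles the by-product of polyamine synthesis to methionine, had means of 0.0231 and 0.0204 CPM in the groups of A101D, beside 76.0 and 77.7 CPM in those of MeWo.

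Integrated stress response genes were higher in A101D replicates 5 to 8, and in MeWo most had the same sign at a smaller size. Of 20 tested members, 17 were called higher in A101D (10% over all genes) and 1 in MeWo (0.264%), none lower, and 15 were called in the interaction (7.43%). The median change was 1.88 in A101D and 0.44 in MeWo, and 15 members had an adjusted p under 0.05 with a positive sign in MeWo (6.16% over all genes), of which CHAC1 alone reached the call size. By class 9 were private to A101D, 7 intermediate and 1 shared.

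ATF4 itself (chr22:39519695-39522685) measured 315, 315, 333 and 313 CPM in A101D replicates 1 to 4 and 778, 822, 799 and 808 CPM in replicates 5 to 8. In MeWo it measured 327, 330, 321 and 324 CPM and then 535, 546, 565 and 509 CPM. All A101D values in replicates 5 to 8 lay above all MeWo values, while replicates 1 to 4 of both lines lay between 313 and 333 CPM. The changes were 1.33 ± 0.03 and 0.73 ± 0.03, and the interaction 0.60 ± 0.04.

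TRIB3, a pseudokinase induced by ATF4, measured 37.2, 41.3, 41.4 and 40 CPM and then 216, 227, 216 and 197 CPM in A101D. The MeWo libraries had 67.8, 76.2, 74.9 and 77.1 CPM and then 109, 124, 124 and 108 CPM. The level was thus lower in A101D than in MeWo in replicates 1 to 4 and higher in replicates 5 to 8, with changes of 2.42 ± 0.05 and 0.65 ± 0.05. CEBPG, a dimer partner of ATF4, changed by 2.7 ± 0.05 and 0.60 ± 0.05, SESN2, a sestrin that restrains mTORC1, by 1.76 ± 0.05 and 0.65 ± 0.08, and DDIT3, the stress factor CHOP, by 1.64 ± 0.06 and 0.47 ± 0.06. GDF15, a secreted stress cytokine, had means of 524 and then 2947 CPM in A101D, and of 77.2 and then 106 CPM in MeWo.

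**Figure D2:**
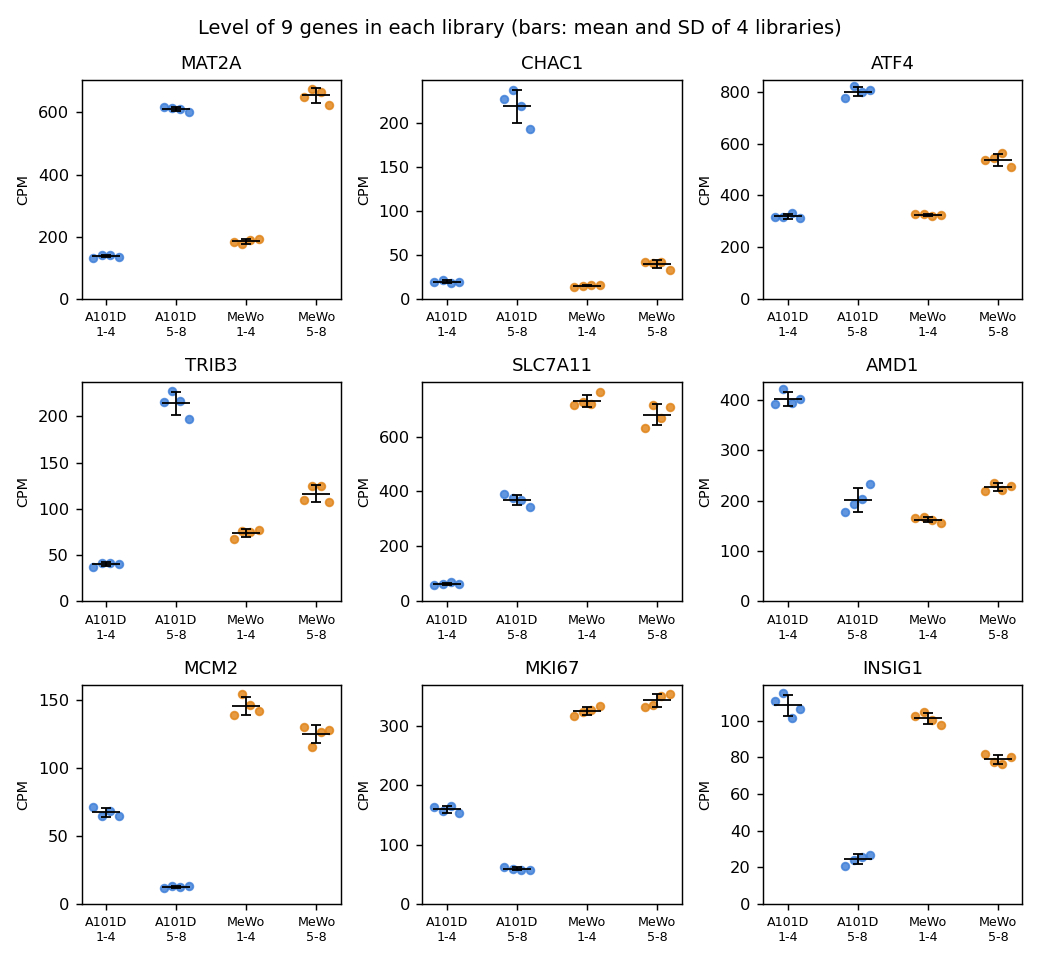
Points give the level in CPM (y axis, from 0) of 9 genes in each library, for A101D replicates 1 to 4 and 5 to 8 (blue) and MeWo replicates 1 to 4 and 5 to 8 (orange), with the mean and SD of 4 libraries as bars. MAT2A is higher in both lines in replicates 5 to 8, AMD1 moves in different directions, and MKI67 is lower in A101D replicates 5 to 8, with a mean of 58.7 against 160 CPM.

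The 5 genes whose profile over the 16 libraries, centred within each line, was most like that of ATF4 among 9008 genes were CARS1 (r = 0.992), AARS1 (0.991), YARS1 (0.990), BTN2A2 (0.989) and CHAC1 (0.989). CARS1, AARS1 and YARS1 charge transfer RNAs with cysteine, alanine and tyrosine. The libraries of a group share its mean, so these values describe the group steps. Of 20 cytosolic synthetases, 1 was called higher in A101D (10% over all genes), SARS1, with changes of 1.11 in A101D and 0.37 in MeWo. Another 1 was called lower in A101D (6.57% over all genes), QARS1, with -1.20 and -0.03, and none was called in MeWo. At an adjusted p under 0.05 of any size, 12 of the 20 were higher and 8 lower in A101D. Over all 21569 genes 7145 were higher and 6996 lower by that rule. In the interaction 12 of the 20 were also higher and 8 lower (5008 and 5586 over all genes), so the list did not move as 1 group. The interaction medians were 0.17 for the cytosolic and -0.13 for 17 mitochondrial synthetases.

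The amino acid transporters that were called higher were all private to A101D. Of 18 tested, 7 were called higher in A101D (10% over all genes) and in the interaction (7.43%), all 7 private (5.04%). In A101D 1 was called lower (6.57% over all genes), and none was called in MeWo (0.631%). SLC7A11, the cystine and glutamate exchanger, measured 59.9, 62.7, 68.8 and 61.4 CPM and then 389, 375, 371 and 344 CPM in A101D. Its MeWo levels were 716, 725, 718 and 763 CPM and then 632, 714, 667 and 708 CPM. All MeWo values were above all A101D values, and the groups did not overlap in either line. The changes were 2.55 ± 0.05 and -0.10 ± 0.04 and the interaction 2.65 ± 0.06. SLC3A2, its partner chain, changed by 1.14 ± 0.04 and 0.00 ± 0.03.

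Enzymes of serine, asparagine, proline and folate metabolism were mixed. Of 19 tested, 5 were called higher and 2 lower in A101D (10% and 6.57% over all genes). In the interaction 6 were called higher and 2 lower (7.43% and 5.93% over all genes). The only call in MeWo was ALDH1L1, a folate enzyme, at -1.84 ± 0.59, where its means were 0.194 and then 0.0559 CPM; in A101D it changed by 0.66 ± 0.24, and its interaction of 2.5 ± 0.63 was the largest of the list. ASNS, asparagine synthetase, measured 2.14, 2.16, 2.24 and 2.43 CPM and then 9.88, 9.58, 10.5 and 10.8 CPM in A101D. In MeWo it measured 5.72, 6.70, 5.06 and 5.42 CPM and then 8.17, 9.74, 8.90 and 8.89 CPM. The groups did not overlap in either line, with changes of 2.18 ± 0.11 and 0.65 ± 0.09. PSAT1 and PHGDH of serine synthesis changed by 1.69 ± 0.04 and 0.89 ± 0.03 in A101D and by 0.37 ± 0.04 and 0.09 ± 0.03 in MeWo, and the folate enzyme MTHFD2 by 0.95 ± 0.04 and 0.38 ± 0.04.

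DNA replication genes were lower in A101D replicates 5 to 8. Of 28 tested, 24 were called lower in A101D (6.57% over all genes) and in the interaction (5.93%), all 24 private, and none was called in MeWo. The median change was -1.97 in A101D and -0.15 in MeWo, where 18 members had an adjusted p under 0.05 with a negative sign (7.45% over all genes). MCM2, a subunit of the replicative helicase, measured 71.1, 64.8, 68.5 and 64.7 CPM and then 11.8, 12.9, 12.1 and 13.2 CPM in A101D. The MeWo libraries had 139, 154, 147 and 142 CPM and then 131, 116, 126 and 128 CPM, also without overlap. The changes were -2.43 ± 0.06 and -0.22 ± 0.04.

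E2F2, a transcription factor of the cell cycle, had the largest private lower interaction among the genes the naming rule took, at -4.86 ± 0.20. It measured 20.8, 19.7, 21.0 and 20.4 CPM and then 0.763, 0.763, 0.318 and 0.577 CPM in A101D. Its MeWo levels were 64.8, 61.5, 64.3 and 63.5 CPM and then 57.5, 50.1, 53 and 51.5 CPM, so the groups did not overlap in MeWo either, with a change of -0.27 ± 0.04. FAM111B, ZNF367 and the PCNA-binding factor PCLAF followed with interactions of -4.24, -4.0 and -3.69.

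Mitosis genes were also lower in A101D replicates 5 to 8. Of 24 tested, 22 were called lower in A101D (6.57% over all genes), all 22 private, and 23 in the interaction (5.93%). The medians were -1.76 in A101D and 0.03 in MeWo, where 15 members had a positive change (50.4% over all genes). MKI67, the proliferation antigen Ki-67, measured 163, 156, 166 and 154 CPM and then 62.5, 57.9, 57.7 and 56.8 CPM in A101D. In MeWo it measured 317, 324, 327 and 335 CPM and then 332, 337, 351 and 355 CPM, with overlapping groups. The changes were -1.44 ± 0.04 and 0.08 ± 0.03. CDKN1A, the p21 inhibitor of cyclin-dependent kinases, changed by 0.85 ± 0.03 in A101D (mean 689 against 382 CPM) and -0.25 ± 0.06 in MeWo (15 against 17.9 CPM). In bulk RNA a different share of dividing cells and a different RNA level per cell cannot be told apart.

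Genes of cholesterol and fatty acid synthesis were in part lower in A101D replicates 5 to 8, and no member reached the call in MeWo. Of 28 tested genes, 10 were called lower in A101D (6.57% over all genes) and 6 in the interaction (5.93%), and the medians were -0.81 and -0.22. In MeWo 22 members had an adjusted p under 0.05 with a negative sign (7.45% over all genes), and 26 of 28 had 1 sign in both lines (60.1% over all genes). INSIG1, which retains the sterol sensor in the endoplasmic reticulum, measured 111, 115, 101.4 and 107 CPM and then 20.5, 24.0, 25.5 and 26.9 CPM in A101D. The MeWo libraries had 97.8 to 105 CPM in replicates 1 to 4 and then 81.6, 77.4, 76.3 and 80.3 CPM. Neither pair of groups overlapped. HMGCS1, an early enzyme of the pathway, changed by -1.38 ± 0.05 and -0.46 ± 0.05.

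**Figure D3:**
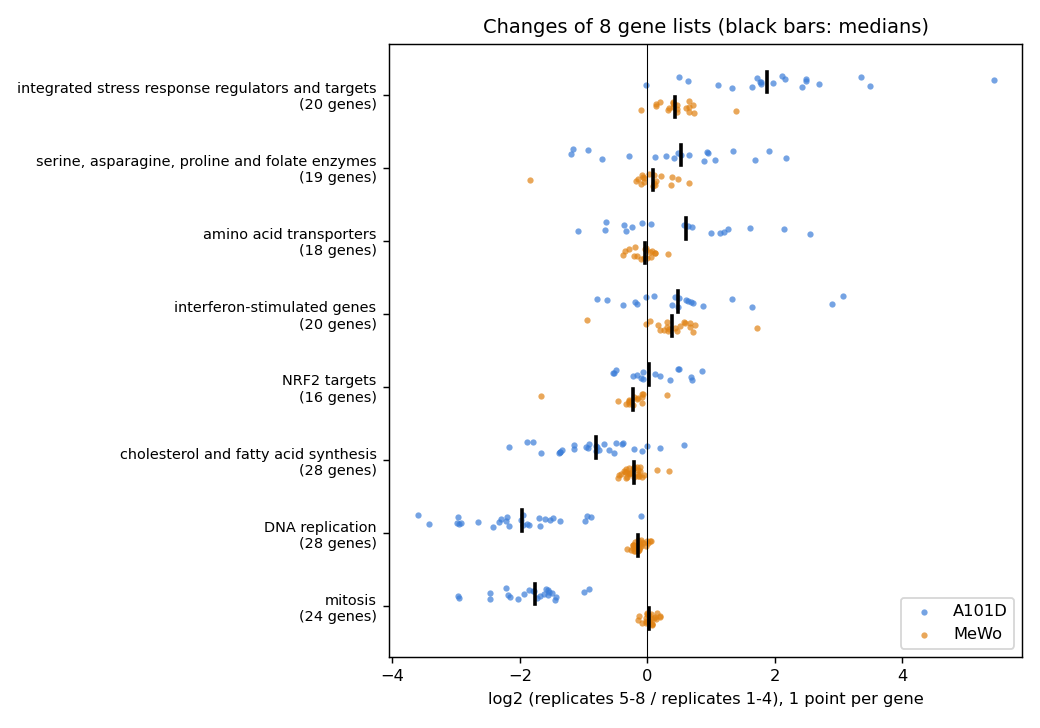
Each point is the log2 change (x axis, replicates 5 to 8 over replicates 1 to 4) of 1 gene of 8 lists (y axis), in blue for A101D and orange for MeWo, with black bars for the medians. The A101D medians run from 1.88 for the integrated stress response to -1.97 for DNA replication, while those of MeWo stay between 0.44 and -0.22.

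The interferon and NRF2 lists had MeWo medians further from 0 than most lists. Of 20 interferon-stimulated genes, 4 were called higher in A101D (10% over all genes), 1 in MeWo (0.264%) and 2 in the interaction (7.43%), and none lower. They had medians of 0.49 in A101D and 0.39 in MeWo and an interaction median of -0.04 (0.02 with total-count or upper-quartile scaling), and 16 of 20 had an adjusted p under 0.05 with a positive sign in MeWo (6.16% over all genes). In the mean centred log2 level of the list, MeWo replicate 2 (-0.44, others -0.70 to -0.67) and MeWo replicate 8 (0.01, others -0.33 to -0.29) stood above their groups. The interaction median was -0.05 without MeWo replicate 2, 0.14 without MeWo replicate 8 and 0.06 without MeWo replicate 3, so its sign rests on single libraries, and the MeWo median was 0.45, 0.31 and 0.36. MX1, an antiviral GTPase, changed by 0.68 ± 0.08 and 0.66 ± 0.13. Of 16 NRF2 targets, 1 was called lower in MeWo (0.366% over all genes) and 2 higher in the interaction (7.43%). Their medians were 0.03 in A101D and -0.22 in MeWo. In MeWo 11 of 16 had an adjusted p under 0.05 with a negative sign (7.45% over all genes) and none with a positive sign. TXNRD1, a thioredoxin reductase, had means of 467 and then 751 CPM in A101D, and of 633 and then 519 CPM in MeWo. NQO1, a quinone reductase, had means of 299 and 379 CPM, and of 873 and 743 CPM.

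The remaining lists held few calls. Over all genes 7.43% were called higher and 5.93% lower in the interaction. The chaperone HSPA5 changed by 0.21 in A101D and -0.11 in MeWo, and of 20 endoplasmic reticulum genes 1 was called higher and 1 lower in the interaction. No CLK kinase or SR splicing factor of 15 was called, with medians of -0.50 in A101D and 0.06 in MeWo. MITF, the melanocyte lineage factor, changed by -0.54 ± 0.06 and -0.02 ± 0.05, and 17 lineage genes had medians of -0.30 and 0.03. Of 21 CDK inhibitors, cyclins and p53 targets, 1 was called higher and 4 lower in the interaction, of 15 hypoxia and glycolysis genes 1 and 1, and of 15 mitochondrial genome transcripts none.

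Among private higher genes of A101D the naming rule took ARHGAP25, TLR7, KRT81 and KRT86. ARHGAP25, a GTPase activator, measured 0.914, 0.784, 1.25 and 0.860 CPM and then 20.6, 21.3, 18.7 and 14.4 CPM in A101D, while MeWo libraries had 1.18 to 2.22 CPM, with an interaction of 3.92 ± 0.33. TLR7, a sensor of single-stranded RNA, had means of 1.42 and then 15 CPM in A101D and had no counts in 6 of 8 MeWo libraries. Its MeWo change was -0.09 ± 0.68. KRT81 and KRT86, hair keratins, had means of 1.80 and then 13.8 CPM, and of 1.05 and then 13.2 CPM, in A101D. In MeWo KRT81 had means of 0.204 and then 0.137 CPM and a change of -0.435 ± 0.48. KRT86 had 0.389 and then 0.536 CPM there and a change of 0.47 ± 0.38. For TLR7, KRT81 and KRT86 the low MeWo level leaves the MeWo change poorly measured. KRT81 and KRT86 overlap on opposite strands and the strand setting of the counting is not known, so their values are uncertain.

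MeWo-private genes were nearly all near the detection limit in MeWo. MAGEB2, a cancer-testis antigen, measured 0.144, 0.0635, 0.0954 and 0.180 CPM and then 0.323, 0.504, 0.237 and 0.206 CPM in MeWo, while A101D libraries had 38.2 to 48.4 CPM. CORO2B, an actin-binding coronin, measured 0.144, 0.127, 0.127 and 0.0599 CPM and then 0.0323, 0.0280, 0 and 0.0257 CPM in MeWo, while A101D libraries had 10.1 to 12.3 CPM. COL13A1, a transmembrane collagen, had an interaction of 1.63 ± 0.56. Its call was lost with a replicate block (1.28) and without MeWo replicate 5 (1.01) or 6 (1.37), and that of MAGEB2 (-1.11) without MeWo replicate 2 (-0.87), 3 (-1.01), 5 (-1.04) or 6 (-0.86). All 8 higher and 14 of 17 lower MeWo-private genes were under 1 CPM in both MeWo groups. The 6 opposite genes (EIF2S2P3, ASS1, LINC02997, SLC25A5P5, POTEI and ENSG00000273384) were likewise low: ASS1, which makes argininosuccinate, had means of 0.271 and 0.656 CPM in A101D, then 0.560 and 0.262 CPM in MeWo.

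With the size limit lowered to 0.5 in absolute log2, 140 genes were shared and higher, of which 15 reached 10 CPM in both lines. They included ATF4, TRIB3, SESN2, CEBPG, APOL6, IRF7, TUBE1 and BBC3 beside MAT2A and CHAC1. At this limit SLC6A6, a taurine transporter, was the only shared lower gene at 10 CPM in both lines (-1.94 and -0.65). CAPN3, a calpain, was the only opposite one (-0.50 and 0.52). Of the genes private to MeWo at this limit, 1 higher and 4 lower reached 10 CPM in both lines. The higher one was ACCS (-0.12 in A101D and 0.69 in MeWo). The lower ones included RN7SL1 (-0.46 and -0.98), RN7SL3 (0.02 and -0.89) and MT-TC (0.10 and -0.58).

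The promoter windows from 250 bases before to 50 after the start were searched on both strands for TGATGNAA, TTTGAA and TCACNCCAC, a form of the sterol regulatory element. TGATGNAA was in 2.04% of 13195 promoters of tested genes and 3.67% of all 27305, in 5.88% of 629 private higher genes and in 1.30% of 614 private lower genes of A101D. It was in 6 of 16 cytosolic synthetase promoters (37.5%), in 3 of 19 of the integrated stress response and in none of the 25 replication and 19 mitosis promoters. TTTGAA was in 10.6% of promoters of tested genes and 15.4% of all, in 21.7% of private lower and 13.7% of private higher genes, in 13 of 19 mitosis promoters (68.4%) and in 1 of 25 replication promoters (4.00%). MAT2A, ATF4, TRIB3, SESN2 and DDIT3 had no TGATGNAA and MCM2, E2F2 and PCLAF no TTTGAA in these windows. TCACNCCAC was in 1.08% of promoters of tested genes and 1.15% of all, and in 1 of 21 promoters of the cholesterol and fatty acid list (4.76%), that of SREBF2. HMGCS1 had no match to it. A match is only a match of letters, and no match says only that the letters are not in the window.

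**Figure D4:**
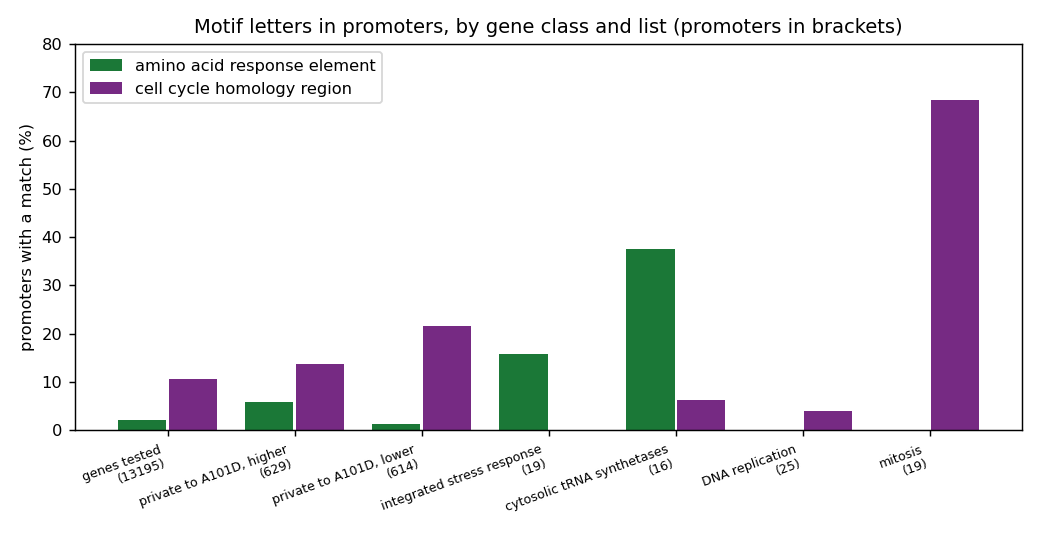
Bars give the percent of promoters (y axis, from 0) that hold the amino acid response element letters (green) or the cell cycle homology region letters (purple) for all tested genes, both A101D-private classes and 4 lists, with the number of promoters in brackets. The mitosis list stands at 68.4% for the cell cycle motif and the cytosolic synthetases at 37.5% for the amino acid motif, against 10.6% and 2.04% of all tested genes.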

How the data were processed

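Total RNA libraries were made with a stranded kit, per the labels' protocols. The submitters' processing notes name Trimmomatic 0.39-1, STAR 2.7.1a, featureCounts 2.0.0 and GRCh38. The annotation release is not given in the sources used here, nor is the strand setting. The authors deposited 1 table per line of whole-number counts per gene, not normalized, per the file headers; each cell joins an identifier and its count (unit other), and both were separated. The design foresaw a count model only if the columns passed as counts; they did not, so limma 3.58.1 (R 4.3.3, voom, robust) was used.

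Genes needed 0.298 CPM in 4 libraries and 15 counts in all. Libraries were scaled by trimmed means (30% and 5% trimmed), 4 group means were fitted, and p-values were adjusted by Benjamini-Hochberg over 21569 genes. Symbols covered 60357 identifiers and GENCODE v29 (GRCh38) positions 58503. Promoters are RefSeq (GRCh38.p14). The fit was tried on simulated data with a common baseline for both lines and changes planted only in well-counted genes. That trial cannot speak for genes near the detection limit, and nothing is read from it here.

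Members, groups and lists were chosen with earlier results of these data known. Named genes were the 4 of largest strength per class with a symbol (no clone, locus or pseudogene name), at least 10 CPM in a group and no overlap, plus 20 fixed genes; other list members named as examples were chosen after their values were seen. Alternatives were 3 other scalings, 2 filters, other thresholds, a replicate block and each library left out.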

Additional observations from a re-analysis of the deposited data

Results flagged for a closer look

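In 8 of 140 groups of 4 libraries checked, 1 library stood apart from the other 3, and chance gives about 1 in 20, or 7. CHAC1 was lowest in MeWo replicate 8 (32.7 CPM, others 40.8 to 42.0). TLR7 had counts in MeWo replicate 2 (0.0318 CPM) and replicate 8 (0.0257 CPM) and none in the others of their groups. AHCY was lowest in MeWo replicate 4 (259 CPM, others 273 to 275) and MTR in MeWo replicate 5 (107 CPM, others 113 to 114). ATF4 was highest in A101D replicate 3 (333 CPM, others 313 to 315) and DDIT3 in A101D replicate 6 (51.7 CPM, others 44.6 to 45.6). HSPA5 was lowest in MeWo replicate 4 (318 CPM, others 337 to 339).

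For the 6 opposite genes every library of A101D moved one way and every library of MeWo the other. The interaction log2 values were 3.88 for POTEI, 3.75 for SLC25A5P5, 3.62 for LINC02997, 2.54 for ASS1, 2.53 for EIF2S2P3 and -2.80 for ENSG00000273384. The rule that chose them used this difference, so it was not tested independently.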

How the results depend on the processing

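Other scalings moved the median change of all genes by at most 0.10 in A101D, 0.04 in MeWo and 0.07 in the interaction. Without the low-count filter 2666 genes were called higher in the interaction, with 11 opposite, 17 shared lower and 20 higher and 42 lower private to MeWo. With a filter at 1 CPM these were 1053 higher, 1 opposite, 6 shared lower and 5 private to MeWo and higher. At an adjusted p of 0.01 there were 2 opposite, 11 shared higher, 5 shared lower, and 2 higher and 3 lower private to MeWo. At a log2 limit of 0.5 the interaction counts were 2948 and 3059, with 27 opposite, 140 and 38 shared, 2308 and 2639 private to A101D, and 33 and 27 private to MeWo. With private read as not called in the other line, 30 were private to MeWo and lower. Members changed class as well. Without the low-count filter 14 of 28 shared higher, 7 of 10 shared lower, and 2 of 8 higher and 11 of 17 lower MeWo-private genes kept their class. Of the genes private to A101D, 874 of 1086 higher and 935 of 997 lower genes did. Of the opposite genes, 3 of 5 with A101D higher and 0 of 1 with MeWo higher did. With the filter at 1 CPM, 18 of 28 shared higher and 5 of 10 shared lower genes kept their class. So did 717 of 1086 higher and 759 of 997 lower A101D-private genes, and 4 of 8 and 11 of 17 MeWo-private genes. Of the opposite genes 0 of 5 and 0 of 1 did, so the 1 opposite gene at that filter was not among them. The cause of these shifts was not tested.

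Leaving out 1 library gave 1495 to 1655 genes higher and 1176 to 1310 lower in the interaction, 983 to 1128 and 922 to 1041 private to A101D, 16 to 35 and 6 to 16 shared, 4 to 9 opposite, and 4 to 14 and 10 to 25 private to MeWo. Shared higher was 16 without MeWo replicate 1, and shared lower 16 without A101D replicate 8 and 6 without MeWo replicate 6. Private to MeWo and higher was 5 without A101D replicate 1, 2 or 4 or MeWo replicate 1, 4 without A101D replicate 8 and 14 without MeWo replicate 4. The interaction call of MAGEB2 was lost without MeWo replicate 2 (-0.87), 3 (-1.01), 5 (-1.04) or 6 (-0.86) and without the filter (-1.15), that of COL13A1 without MeWo replicate 5 (1.01) or 6 (1.37), and that of CBS without A101D replicate 1 (0.995). The cause was not tested.

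Replicate numbers did not pair the lines (correlations -0.025 to 0.078, none over 0.1). With a replicate block 1585 genes were higher and 1255 lower in the interaction, and COL13A1 (1.28) lost its call. The endoplasmic reticulum list's interaction median changed sign from -0.00 to 0.0353, 0.0567 and 0.0615 under median-of-ratios, upper-quartile and total-count scaling. DESeq2 and edgeR were not run, because the columns did not pass as counts.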
